A study of Homo sapiens with 8 samples.

Results

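The cytosolic ribosomal protein genes of MDA-MB-231 cells were compared between a soft and a stiff culture substrate. A gene was a member if the array annotation gave a probe set the symbol RPL or RPS with a number and at most a final A, or RPSA, RPLP0, RPLP1, RPLP2 or RPS4X, and no other symbol. This rule found 52 genes of 19775 measured, 20 of the small (40S) and 32 of the large (60S) ribosomal subunit. They were read by 111 probe sets, and each gene was represented by its brightest probe set, judged by the mean of all 8 arrays. The remaining ribosomal protein genes were not analysed here, RPSA, RPLP0, RPL5, RPL10, RPL13A and RPS27A among them.

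MDA-MB-231 is a human triple-negative breast cancer cell line. Both groups were untreated cells of this 1 line in the same serum-containing medium, kept for 2 days on either substrate, with 4 biological replicates (A to D) and 1 Affymetrix array each. The stiffness of the substrates is not given in the sources used here. Substrate mechanics, mevalonate metabolism and RhoA signalling are among the subjects that the title of the series names.

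The cytosolic ribosome translates nuclear-encoded messages: the small subunit reads the mRNA and the large subunit joins amino acids. Ribosomal proteins are made in similar amounts and are assembled with ribosomal RNA in the nucleolus, so their mRNAs are among the most abundant of a growing cell. Most of these mRNAs begin with a terminal oligopyrimidine (TOP) tract, a C followed by a run of C and T, through which mTORC1 and the RNA-binding protein LARP1 control their translation and stability.

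The start of the mRNA is shown first for the members the results turn on, because it is the feature that this gene family shares and the member rule did not use. RefSeq promoter sequences (GRCh38.p14, 250 bases before to 50 after an annotated start) were found for 46 of the 52 members, and not for RPL23A, RPL7, RPL37, RPS15A, RPL30 and RPL8. A TOP start was counted where the first base was C and at least 5 pyrimidines stood in a row from it, on the strand of the gene. It was present at an annotated start of 34 of the 46 members (73.9%) and of 934 of 15384 measured genes with a promoter entry (6.07%). With the start allowed to lie up to 5 bases to either side, the shares were 87.0% and 27.8%. Each line below holds the last 10 bases before the start and the first 20 after it, which lie in the promoter and the first exon, and capitals mark the pyrimidines that run on from the start. RPLP2 is read at chr11:809957-809986 on the plus strand, RPL27A at chr11:8682782-8682811 plus and RPL36 at chr19:5690285-5690314 plus. RPL35 is read at chr9:124861938-124861967 minus, RPS3 at chr11:75399508-75399537 plus and RPS6 at chr9:19380217-19380246 minus. The starts of RPS4X (chrX:72277229-72277258 minus), RPS29 (chr14:49598691-49598720 minus) and RPS15 (chr19:1438386-1438415 plus) have no TOP tract at the annotated base and are shown for contrast. The sequences shown were picked with the results known and are no sample of the family. Members with differences near 0 also had a TOP start and are not shown, such as RPL31 (-0.0175), RPS23 (-0.0275) and RPLP1 (-0.035).
RPLP2: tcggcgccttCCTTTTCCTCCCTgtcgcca
RPL27A: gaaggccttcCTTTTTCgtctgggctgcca
RPL36: cggcgccagcCCTTCCgccacggccgtctc
RPL35: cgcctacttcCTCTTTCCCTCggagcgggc
RPS3: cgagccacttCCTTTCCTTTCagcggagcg
RPS6: gaagttggccCTCTTTTCCgtggcgcctcg
RPS4X: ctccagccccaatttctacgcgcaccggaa
RPS29: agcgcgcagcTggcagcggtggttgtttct
RPS15: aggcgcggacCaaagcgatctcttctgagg

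The promoters were also searched on both strands for 3 short motifs, of which the first and the second can overlap at their shared letters AAG. The ETS-factor core CCGGAAG was in 17 of the 46 member promoters (37.0%) and in 16.6% of all. The YY1 core AAGATGGC was in 4 (8.7%) against 4.75%, and the E-box CACGTG in 3 (6.52%) against 10.9%. A match is a run of letters in this window and not a shown site of binding.

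The 8 arrays correlated at 0.9932 to 0.9982 over all probe sets. The cell line's own markers were bright: VIM, CD44, CAV1, ANXA1, AXL and KRT18 had mean log2 levels of 13.02 to 14.58. Luminal and epithelial genes low in this line (ESR1, PGR, GATA3, CDH1, EPCAM and ERBB3) lay at 3.62 to 9.88, with EPCAM highest. Of these 12 genes AXL was called lower on soft and ERBB3 higher. Of the 8 markers listed for leukocytes, endothelium, stroma and fat, 7 were measured, at 3.02 to 7.77, and their mean level per array was 5.12 to 5.32 on stiff and 5.15 to 5.31 on soft. The endothelial marker PECAM1 alone of these 7 passed the test, 0.49 higher on soft (adjusted p = 0.00211, limma). The log2 scale holds no 0, and the part of these cells in the results was not tested. In bulk RNA, fewer cells of a type and less RNA per cell cannot be told apart.

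Ribosomal protein mRNAs leaned slightly lower on the soft substrate, and the family was not tested as a set. The difference, soft minus stiff on the log2 scale, was below 0 for 52 of 52 members in the deposited scaling, for 47 after a repeated quantile normalisation and for 45 after cyclic loess between the arrays. Over all genes 47.6% had a difference below 0. The bright members varied together across the arrays, as given below, so the signs are not independent counts. The median member difference was -0.06 (-0.03 after cyclic loess), and the median over all genes 0.01. The shift was small for nearly all members: 19 lay between -0.05 and 0, 24 from -0.1 to -0.05 and 9 at -0.1 or lower. The 19 smallest differences left soft levels at 96.8% to 99.5% of stiff on the linear scale.

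Only 3 members passed the test of limma at an adjusted p under 0.05, all lower on soft: RPLP2, RPL27A and RPL36, all of the large subunit. No member was higher. Over all genes 5.93% were called lower and 4.39% higher, so that the 3 of 52 are near the background share of lower calls. At an unadjusted p under 0.05, 4 members were lower and 0 higher, where 13.7% of all genes were lower and 11.3% higher; the members' share is below that background. RPLP2 rests on a probe set at a mean level of 6.21, below the median level of 6.89 over all genes. The probe set of RPL27A lay at 8.125. Brighter probe sets annotated with these genes beside a small nucleolar RNA gene did not pass, as given below. The 4 soft arrays all lay below the 4 stiff arrays for 24 members, 8 of the small and 16 of the large subunit, against 11.2% of all genes. With cyclic loess this count was 13, for which the share over all genes is not given here. All 4 soft arrays lay above for no member, against 8.78% of all genes.

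**Figure D1:**
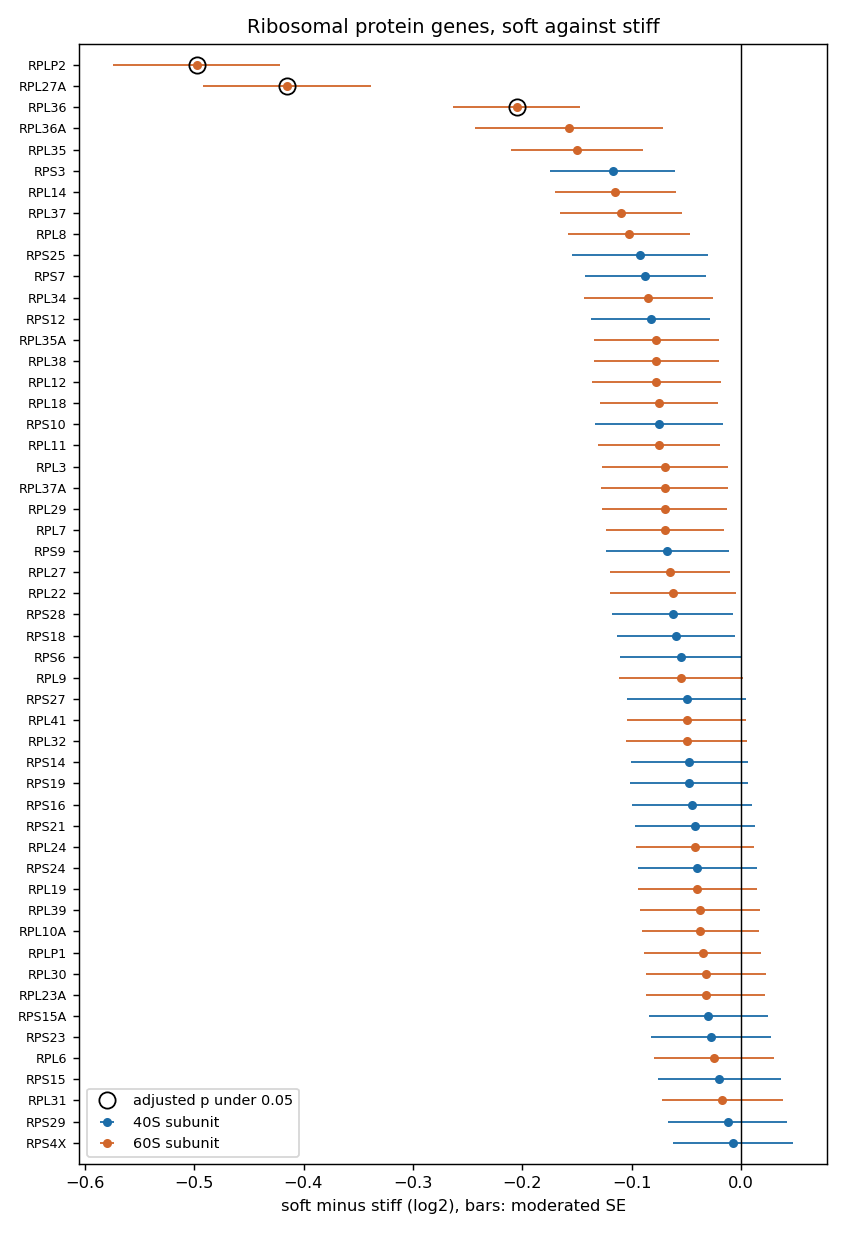
The horizontal axis gives the difference, soft minus stiff, on the log2 scale, and each row is 1 of the 52 ribosomal protein genes, ordered by that difference. Points are differences over 4 arrays per group, bars the moderated standard error of limma, colours the subunit, and open circles mark an adjusted p under 0.05. All 52 points lie left of 0 in the deposited scaling, most of them between -0.1 and 0, and RPLP2, RPL27A and RPL36 carry circles.

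RPLP2 is an acidic protein of the ribosomal stalk, which recruits elongation factors. Its probe set 200908_s_at had log2 levels of 6.48, 6.5, 6.45 and 6.4 on stiff A to D and of 5.76, 5.96, 6.04 and 6.08 on soft A to D. The groups did not overlap, and soft A was the lowest array. This probe set fell by 0.50 (SE 0.0762, adjusted p = 0.00317, limma, n = 4 per group), to 70.8% of its stiff level. The second probe set of the gene, 217670_at, lay at 3.79 with a difference of -0.07 and did not pass. A brighter probe set, 200909_s_at, is annotated with RPLP2 and SNORA52, and the rule used it for no gene. It read 13.91, 14, 13.91 and 13.91 on stiff and 13.84, 13.82, 13.93 and 13.92 on soft, with overlapping groups and a difference of -0.06 (SE 0.0593, adjusted p = 0.649, limma). The fall is therefore that of 1 probe set at a mean level of 6.21, and which transcripts it reads was not tested.

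RPL27A is a protein of the large subunit. Its levels were 8.29, 8.28, 8.46 and 8.3 on stiff and 7.82, 7.8, 8.03 and 8.02 on soft. The groups did not overlap, and stiff C stood above the other stiff arrays. Its single-symbol probe set, 212044_s_at, fell by 0.42 (SE 0.0768, adjusted p = 0.00805, limma, n = 4 per group), to 75.0% of stiff. With stiff A and B alone as the stiff group its adjusted p was 0.0624. The 2 probe sets annotated with RPL27A and SNORA3A, used for no gene, did not pass: the bright 203034_s_at, at a mean level of 14.24, differed by -0.08 (SE 0.0564, adjusted p = 0.435) and 223707_at, at 6.25, by -0.13 (adjusted p = 0.275). Of the 3 probe sets, the one at a mean level of 8.12 alone passed.

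RPL36, another large subunit protein, read 12.86, 12.92, 12.91 and 12.88 on stiff and 12.65, 12.65, 12.68 and 12.77 on soft. All soft arrays were below all stiff arrays. Its difference was -0.21 (SE 0.058, adjusted p = 0.0495, limma, n = 4 per group), which is 86.8% of stiff. Leaving out any 1 of the 8 arrays moved the adjusted p to between 0.0546 and 0.127, so the call was lost whichever array was left out.

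**Figure D2:**
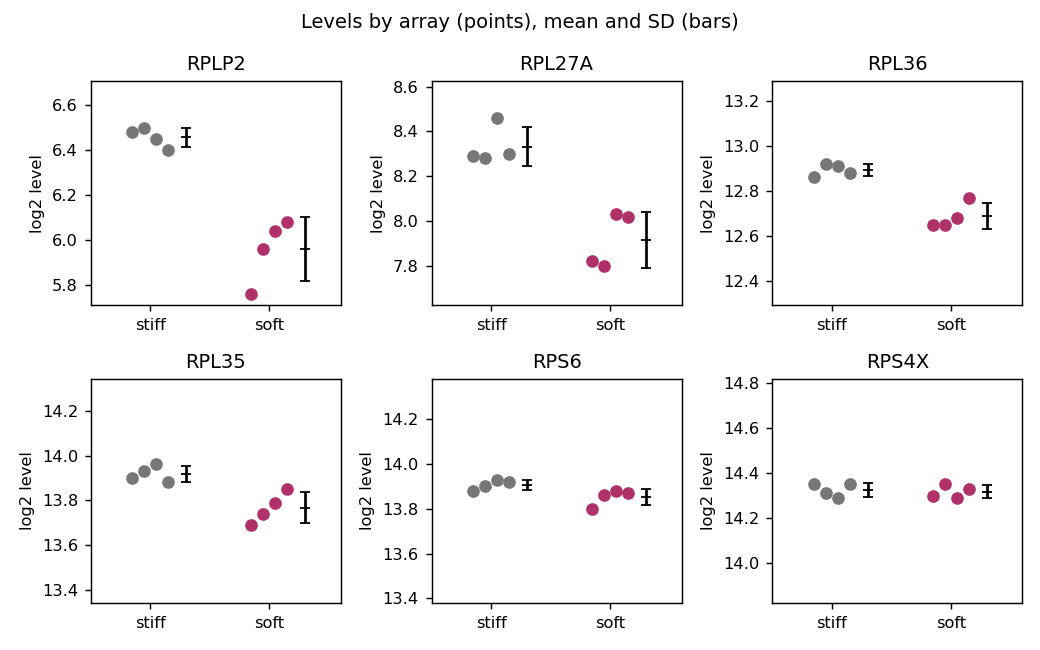
Each panel shows 1 gene, with the log2 level on the vertical axis (a span of 1 in each panel), points for arrays A to D from left to right in each group, and a bar for the mean and SD of the 4 arrays. The groups are apart for RPLP2, RPL27A, RPL36 and RPL35, the last of which did not pass the test, touch for RPS6 (soft C at 13.88, stiff A at 13.88) and overlap for RPS4X.

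The rest of the large subunit had smaller differences. RPL35, which sits by the exit tunnel, read 13.9, 13.93, 13.96 and 13.88 on stiff and 13.69, 13.74, 13.79 and 13.85 on soft. The groups did not overlap, yet the difference of -0.15 (SE 0.0602) had an adjusted p of 0.158 (limma). RPL36A was the dimmest member, at 5.95 ± 0.128 on stiff and 5.79 ± 0.133 on soft (SD, n = 4), and its arrays overlapped. Its difference of -0.16 had an adjusted p of 0.314 (limma). Beyond the named rule, RPL14 (-0.12), RPL37 (-0.11) and RPL8 (-0.10) are given because they completed the set at -0.1 or lower, a choice made after their values were seen. Each had all soft arrays below all stiff arrays and none passed.

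RPL11, which binds MDM2 when ribosome assembly is disturbed, read 13.75, 13.77, 13.76 and 13.75 on stiff and 13.64, 13.7, 13.74 and 13.65 on soft. All soft arrays were lower, by 0.075 on average (adjusted p = 0.482, limma). RPL3, next to the peptidyl transferase centre, differed by -0.07, from 13.62 ± 0.037 to 13.55 ± 0.048 (SD, n = 4). RPL38, needed in mouse embryos for the translation of some Hox messages, differed by -0.08, from 13.69 ± 0.0299 to 13.62 ± 0.052. The arrays of RPL3 and RPL38 overlapped at soft C and D.

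RPL22, which has the paralog RPL22L1, read 13.26 ± 0.0424 on stiff and 13.20 ± 0.0419 on soft, with overlapping arrays. RPL41, the shortest ribosomal protein, read 14.63, 14.65, 14.59 and 14.61 on stiff and 14.58, 14.58, 14.56 and 14.56 on soft, without overlap, a difference of -0.05. RPL39, a protein of the exit tunnel, differed by -0.04 with overlapping arrays. RPLP1, the partner of RPLP2 in the stalk, read 14.21, 14.22, 14.21 and 14.23 on stiff and 14.18, 14.17, 14.2 and 14.18 on soft. Its groups did not overlap, but the difference was -0.04 (adjusted p = 0.762, limma), and repeated quantile normalisation turned it to 0.0053. RPL6 and RPL31 had the smallest differences of the subunit, -0.03 and -0.02, and both were above 0 after cyclic loess and after repeated quantile normalisation. None of the members from RPL11 to RPL31 passed the test.

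In the small subunit no member passed the test, with adjusted p from 0.252 to 0.957 (limma) and soft levels at 92.2% to 99.5% of stiff; 0 had an unadjusted p under 0.05, and RPS3 alone was called with the trended variance. The median difference was -0.05 over its 20 members and -0.07 over the 32 of the large subunit, which was not tested. RPS3, at the mRNA entry channel, read 13.86, 13.87, 13.82 and 13.79 on stiff and 13.69, 13.67, 13.77 and 13.74 on soft. The groups did not overlap, and the difference of -0.12 (SE 0.0574) was the largest of the subunit (adjusted p = 0.252). RPS6, the substrate of the S6 kinases, read 13.88, 13.9, 13.93 and 13.92 on stiff and 13.8, 13.86, 13.88 and 13.87 on soft. Soft C equalled stiff A, and the difference was -0.06 (SE 0.0554, adjusted p = 0.622).

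RPS18, the brightest member, read 14.62, 14.65, 14.63 and 14.64 on stiff and 14.55, 14.57, 14.6 and 14.58 on soft, all lower. RPS19, the gene most often mutated in Diamond-Blackfan anaemia, read 14.3, 14.33, 14.31 and 14.31 on stiff and 14.27, 14.25, 14.25 and 14.29 on soft. RPS14, lost in the 5q- syndrome, read 14.1, 14.11, 14.13 and 14.12 on stiff and 14.06, 14.06, 14.08 and 14.07 on soft. The 3 genes shared groups that did not overlap and differences of only -0.06, -0.05 and -0.05, none past the test.

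The 2 members nearest to 0, RPS4X and RPS29, were also of the small subunit. RPS4X, an X-linked member as are RPL36A and RPL39, read 14.35, 14.31, 14.29 and 14.35 on stiff and 14.3, 14.35, 14.29 and 14.33 on soft. Its groups covered the same range, and the difference was -0.01 (SE 0.0552, adjusted p = 0.957, limma). RPS29 differed by -0.01 and RPS15, needed for nuclear export of the small subunit precursor, by -0.02, both with overlapping arrays. After cyclic loess RPS4X, RPS29 and RPS15 were at 0.0225, 0.0178 and 0.0104.

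Most members were read by very bright probe sets. A probe set's level depends on its probes as well as on the mRNA, so levels serve here to group probe sets by signal and not to rank genes by abundance. The highest level of any gene was 14.74, and whether signal this high follows the mRNA in proportion was not tested. At a mean level of at least 13 there were 48 members, with a median difference of -0.06 (96.1% of stiff signal, range 90.1% to 99.5%). Of these, 48 were below 0 in the deposited scaling (fewer after cyclic loess, as above), and 21 had all soft arrays below all stiff arrays. None passed limma's test, 1 had an unadjusted p under 0.05, and the adjusted p ranged from 0.158 to 0.957. The 180 other genes at this signal level were evenly divided, with 86 below 0 (47.8%), a median of 0.01, 9 called lower and 9 called higher. Of these 180, 37 had all soft arrays below all stiff arrays and 40 had all soft arrays above. None of the 48 members had all soft arrays above. At a level of at least 14, 31 of 31 members and 6 of 21 other genes were below 0. Both sets of genes were read on the same arrays but were not matched in signal. The median level was 14.1725 for the 48 members and 13.395 for the 180 other genes. What sets the members apart from the others was not tested.

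The lower level appeared on each soft array. Relative to the mean of the stiff arrays, the median of the 48 members was -0.075, -0.0638, -0.0412 and -0.035 on soft A to D, and -0.0075, 0.015, -0.0062 and -0.0025 on stiff A to D. Soft A and B were the lower pair, and every soft median lay below every stiff median. On soft A, 48 of the 48 were below their stiff mean, on soft B 46, on soft C 45 and on soft D 45. The same medians over the other 180 bright genes were -0.0188, 0.0113, 0.005 and 0.01 on soft A to D. The stiff arrays fell into A and B against C and D on the second principal component of all probe sets; against either pair alone 51 of the 52 members were below 0.

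**Figure D3:**
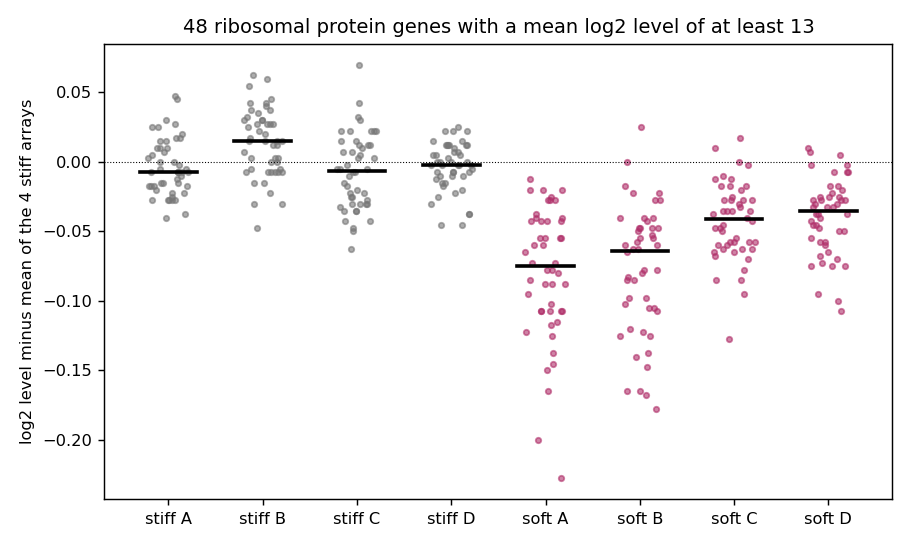
The vertical axis gives the log2 level of a gene minus its mean on the 4 stiff arrays, for the 48 members with a mean level of at least 13, with 1 point per gene and array and a line at each array's median. The stiff medians lie between -0.0075 and 0.015, the soft medians between -0.075 and -0.035, and nearly all points of the soft arrays lie below 0.

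The bright members varied little and together. Their SD within groups had a median of 0.0279, against 0.0446 for the other bright genes. After each group's mean was removed, pairs of members correlated over the 8 arrays with a median r of 0.311, and 73.0% of the 1128 pairs were above 0; among the other bright genes the median was 0.0656 and 54.1% were above 0. These correlations are across genes that share arrays and partly probes, and are given as a description. The moderated SE of the test drew on all probe sets and had a median of 0.0551 for the bright members, where their own arrays gave 0.0197. With a variance that follows signal (trended and robust), 8 members were called lower: RPLP2, RPL27A, RPL36, RPL35 (adjusted p = 0.0155), RPL14 (0.0195), RPL37 (0.027), RPS3 (0.0336) and RPL8 (0.0482). The share of all genes called lower was then 8.89%. With only probe sets at a level of at least 10 tested, 6 of 49 members were called lower, below the 24.4% of all genes called lower in that fit.

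The probe sets not used for a gene leaned the same way: of 59, 51 were below 0, 6 were called lower and 1 higher. Over all 111 probe sets, which include the 52 used ones and their 3 calls, differences were larger at a level of 6 to 13. Of the 111, 103 were below 0, 9 were called lower and 1 higher, where 4.63% and 4.64% of all probe sets were called lower and higher. The 66 at a level of at least 13 were all below 0 in the deposited scaling and none was called (1 at an unadjusted p under 0.05). The 34 at a level of 6 to 13 had 31 below 0, 9 called lower, 1 called higher and a median of -0.14, while all 25792 probe sets of this range had a median of -0.01, with 2184 called lower and 2073 higher. Below 6, 6 of 11 were below 0 and none was called (0 at an unadjusted p under 0.05).

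Of the probe sets called lower, 6 were not the one used for their gene, and they are named here after their values were seen. They were of RPL35A (238026_at, a fall of 0.41, adjusted p = 0.00529, limma), RPL37A (213459_at, 0.39, 0.0237), RPL14 (219138_at, 0.35, 0.0194), RPS19 (242451_x_at, 0.34, 0.0251), RPS21 (214097_at, 0.32, 0.0128) and RPL7 (239493_at, 0.22, 0.0438). For these 6 genes the brighter probe set differed by -0.12 to -0.04.

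Of the 33 genes with several probe sets, 8 had probe sets on both sides of 0, and RPL37A alone had calls in both directions. Probe set 214041_x_at read 8.12, 8.18, 8.15 and 7.93 on stiff and 8.57, 8.52, 8.87 and 8.9 on soft, a rise of 0.62 (adjusted p = 0.0039, limma). Probe set 213459_at read 8.3, 8.5, 8.41 and 8.44 on stiff and 7.8, 8.06, 8.25 and 7.98 on soft, and the brightest, 201429_s_at, differed by -0.07. The 3 probe sets thus gave a rise, a fall and no call, and which transcripts each reads was not tested. Many ribosomal protein genes have near-identical processed pseudogenes, and probe sets ending in _x_at or _s_at can share probes between transcripts. A further 64 probe sets with a ribosomal protein symbol beside another symbol, used for no gene, had 55 below 0, 7 called lower, 0 higher and a median of -0.07.

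**Figure D4:**
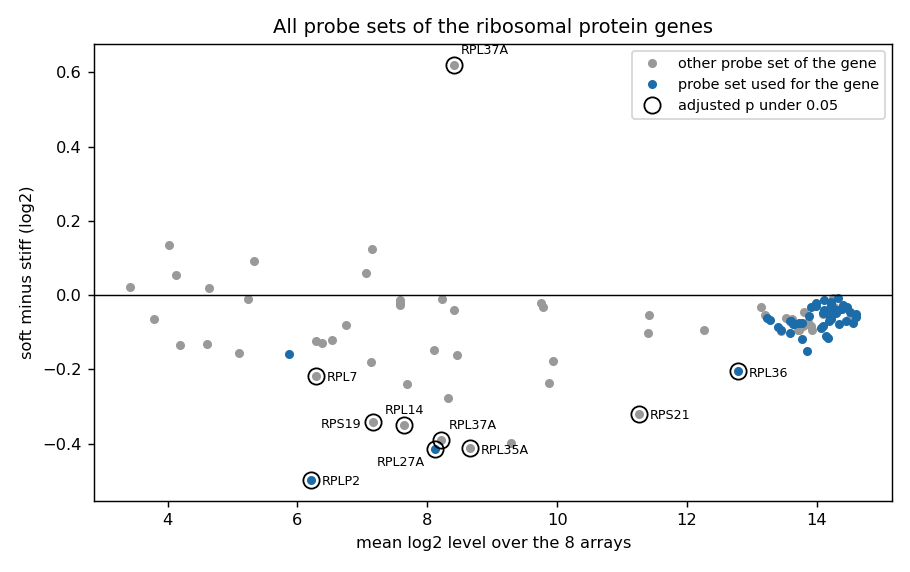
The horizontal axis gives the mean log2 level over the 8 arrays and the vertical axis the difference, soft minus stiff, for the 111 probe sets of the 52 genes; blue points are the probe sets used and open circles mark an adjusted p under 0.05. The probe sets at a level of at least 13 form a tight band just below 0, and the 10 circled ones lie below that level, 9 of them below 0 and 1 of RPL37A at 0.62.

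The presence of a TOP start among members was set beside their differences, without a test. The 34 with a TOP start had a median difference of -0.07 and the 12 without one -0.05, and 34 and 12 were below 0. The split depends on the annotated base. With the start allowed to lie up to 5 bases to either side, 40 of the 46 members had a TOP start. RPL10A, RPL19, RPL3, RPL32, RPS28 and RPS7 were then no longer among those without one. The 3 called members all had a TOP start, as the sequences above show, and so did 73.9% of the 46 members with a promoter entry. A link between TOP start and call was not tested. Among genes outside the family, 900 had a TOP start, of which 449 were below 0, with 68 called lower, 51 higher and a median of 0. The 23 of these at a level of at least 13 had 17 below 0 and a median of -0.04.

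Genes that work with the ribosomal proteins are given by lists. Over all genes, 5.93% were called lower and 4.39% higher. The ribosome biogenesis, chaperone and mitochondrial lists below had median levels of 10.40, 10.08 and 10.74, against 14.125 for the members. Genes outside the family at a level of 10 to 13 numbered 3419 and leaned lower. Of these, 59.4% were below 0, 393 were called lower and 266 higher, with a median of -0.0375. Among 16 measured of 18 other genes with classical TOP mRNAs, 12 were below 0 (10 with repeated quantile normalisation and 7 with cyclic loess), 1 was called lower and 0 higher, with a median of -0.03. The called gene, HNRNPA1, a splicing factor, fell by 0.22 (SE 0.0603, adjusted p = 0.0421, limma), and the count was 0 whichever array was left out, with cyclic loess and with repeated quantile normalisation. EEF1A1, the elongation factor that brings tRNA to the ribosome, differed by 0.02. Among 9 measured of 11 ribosomal protein paralogs and fusion genes left out by the symbol rule, 7 were below 0 and none was called, although 3 had an unadjusted p under 0.05; the largest difference was that of RPL10L, -0.25 (adjusted p = 0.0613).

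Ribosome biogenesis genes, which make and fold ribosomal RNA into subunits, had the lowest median of the lists. Of 25 measured of 30 ribosome biogenesis genes, 25 were below 0 (23 with cyclic loess and 24 with repeated quantile normalisation), 13 were called lower and 0 higher, with a median of -0.23. RRS1, needed for large subunit assembly, fell by 0.51 (SE 0.0754, adjusted p = 0.00279, limma), from 10.91, 11.03, 10.97 and 10.95 to 10.41, 10.51, 10.62 and 10.3. BRIX1, which acts at the same stage, fell by 0.45 (SE 0.0957, adjusted p = 0.0146). With stiff A and B alone 4 of the 25 were called, and with stiff C and D alone 8, where 2.66% and 1.96% of all genes were called lower.

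Of 11 chaperones and import factors of ribosomal proteins, 11 were below 0 (10 with cyclic loess or repeated quantile normalisation), 3 were called lower and 0 higher, with a median of -0.16. The called genes were GRWD1, a chaperone of RPL3, lower by 0.32 (adjusted p = 0.00628, limma), BCCIP, a chaperone of a large subunit protein, lower by 0.3 (adjusted p = 0.0105), and LTV1, an assembly factor of the small subunit, lower by 0.24 (adjusted p = 0.0457). Without soft C the count was still 3, and without any other 1 array it was 2. With stiff A and B as the only stiff arrays 1 was called, and with stiff C and D 0.

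The mitochondrial ribosome, which translates the messages of the mitochondrial genome, is encoded by separate genes. Of 75, 68 were below 0 (64 with cyclic loess and 66 with repeated quantile normalisation), 13 were called lower and 0 higher, with a median of -0.14. MRPS25 fell by 0.44 (SE 0.0657, adjusted p = 0.00279, limma) and MRPS26 by 0.41 (SE 0.0603, adjusted p = 0.0025). The count of 13 fell whichever array was left out, except soft C. It was 3 without stiff B, 4 without soft B or stiff C, and 5 without soft A or stiff D. It was 6 without stiff A, 7 without soft D and 13 without soft C. The share of all genes called lower fell too, from 5.93% to between 2.77% (without stiff B) and 3.84% (without stiff A). Without soft C that share was 6.06%. Across these fits 65 to 69 of the 75 genes were below 0, with medians from -0.1592 to -0.1267. With stiff A and B as the only stiff arrays the count was 3, and with stiff C and D 2, where 2.66% and 1.96% of all genes were called lower.

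Of 17 genes of mTORC1 and of LARP1-type control of TOP mRNAs, 1 rose and 1 fell, with a median of -0.02 that was 0.01 with either cyclic loess or repeated quantile normalisation. TSC2, an inhibitor of mTORC1, read 7.2, 7.2, 7.18 and 7.19 on stiff and 7.73, 7.42, 7.51 and 7.72 on soft, a rise of 0.40 (SE 0.0778, adjusted p = 0.00981, limma). Against stiff A and B alone its adjusted p was 0.0707, and against stiff C and D alone 0.0685. LARP4, a poly(A)- and mRNA-binding protein of the La-related family, fell by 0.34 (SE 0.0638, adjusted p = 0.00878), with an adjusted p of 0.0805 when stiff A and B stood for stiff. The list had 2 higher and 0 lower calls against stiff A and B, 0 and 1 against stiff C and D, and 2 and 1 with cyclic loess. LARP1 differed by -0.13, MTOR by -0.13 and the S6 kinase gene RPS6KB1 by -0.01, none past the test. The arrays measure mRNA levels, and neither mTORC1 activity nor translation was measured.

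**Figure D5:**
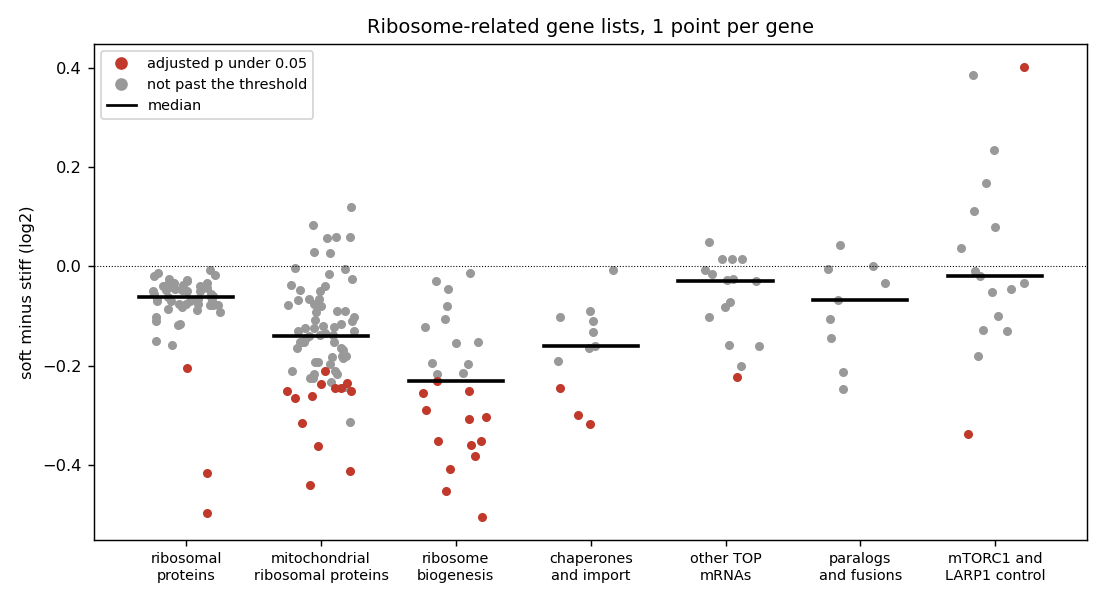
The vertical axis gives the difference, soft minus stiff, in log2 units, with 1 point per gene for the 52 ribosomal protein genes and 6 lists of related genes; red points have an adjusted p under 0.05 and lines are medians. The medians are -0.06 for the ribosomal proteins, -0.14 for the mitochondrial ribosomal proteins, -0.23 for ribosome biogenesis, -0.16 for chaperones and import, -0.03 for other TOP mRNAs, -0.07 for paralogs and fusions and -0.02 for mTORC1 and LARP1 control.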

How the data were processed

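Total RNA of 8 cultures, 4 per substrate, was hybridised to 1 array each. The authors deposited 1 log2 value for each probe set on each array. They were made with RMA, per the submitters' processing notes; that they are log2 and rounded to 2 decimals was read from the numbers. RMA equalises the arrays' distributions, so a shift common to all genes would not be seen. Software, version and probe definition of RMA are not given in the sources used here. Scanner files were not used here. The number of arrays limits the precision.

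Of 54675 probe sets, 62 manufacturer controls were left out. The platform annotation gave 1 symbol to 41091 of the rest, several to 1801 and none to 11721, and those with several named no gene. The comparison used limma 3.58.1 under R 4.3.3, with lmFit and an untrended eBayes over 54613 probe sets and all 8 arrays, two-sided, with Benjamini-Hochberg adjustment over all of them, a threshold of 0.05, no filter and no pseudocount. The procedure was run on simulated data with independent noise and added differences larger than those of the members. That run does not bear on shifts as small as theirs. Each gene took 1 probe set, the brightest over all arrays. The SE is the moderated one. Percentages of stiff are 2 to the power of the difference. The labels do not say how the biological replicates were separated, so p-values reflect only the spread among these samples, which may be technical, and the smallest exact permutation p of 4 against 4 is 0.0286.

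Members and lists were chosen with earlier results of these data known. Named were listed landmark members, called members, the 5 differences at either end, the highest and lowest level and, per list, up to 2 called genes in each direction or else the largest difference; others are marked as chosen after their values were seen. Same-lettered arrays deviated together at r of 0.1225, -0.1184, 0.05158 and -0.04474 for A to D, so letters were not taken as pairs. Alternatives were other scalings, filters, variance models, array weights, thresholds, choices of probe set, a replicate block, stiff pairs and leaving out each array.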

Additional observations from a re-analysis of the deposited data

Results flagged for a closer look

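In the 44 groups of 4 arrays tested, those of the 22 named members, an array was taken to stand apart when its gap to the nearest array as a share of the group's range exceeded Dixon's 95% critical value, which chance gives in about 1 of 20 groups. The level of RPL27A on stiff C was 8.46, where the next array had 8.3. The level of RPL6 on soft B was 14.22, where the other soft arrays had 14.21, a step equal to the rounding of the table.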

How the results depend on the processing

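Among 25 alternative settings the median member difference was -0.0825 with arrays centred on their medians, -0.032 with cyclic loess and -0.0825 over the 30 members read by probe sets without shared probes, and from -0.0671 to -0.0525 when 1 array was left out. The count called lower was 6 with a level of at least 10, where 24.4% of all genes were called lower. With the trended and robust variance it was 8, against 8.89% of all genes. It was 1 against stiff A and B (2.66%), and 2 when any 1 array was left out (2.77% to 6.06%). Without shared probes it was 5 (RPL14, RPL35A, RPL37A, RPL7 and RPS21), with 27 of 30 below 0 and 13 without overlap. Shares of all genes are not given for that choice. Added after seeing the data, the count of calls was 0 for members at a level of at least 13. It was 9 lower and 1 higher over all 111 probe sets, and 7 lower over probe sets with several symbols. Cyclic loess left 13 members without overlap. Leaving out 1 array gave 25 to 30, and 51 or 52 below 0. The share of all genes without overlap is not given for these fits. With the replicate block 2 members were called, RPL36 having an adjusted p of 0.105 (limma); the fit changed no other call of a named member. RPL36 lost its call in 15 settings. Differences turned above 0 for RPL31 (0.0126), RPL6 (0.0051), RPS15 (0.0104), RPS29 (0.0178) and RPS4X (0.0225) with cyclic loess; for RPL31 (0.0184), RPL6 (0.0109), RPLP1 (0.0053) and RPS29 (0.0127) with repeated quantile normalisation; for RPLP1 (0.0288) as the mean of its probe sets; for RPLP1 (0.0925) and RPS6 (0.055) without shared probes; for RPL6 (0.0025) against stiff A and B; for RPS15 (0.015) against stiff C and D; and for RPS4X without soft C (0.0017), stiff A (0.0008) or stiff D (0.0008), its range without 1 array being -0.0192 to 0.0017. The cause was not tested. Of the values of the 22 named members, 388 kept their direction and side of the threshold, 17 lost a call, 4 gained one and 17 turned. Differences of the bright members are of the order of a few steps of the table's 2 decimals.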
